A study of Mus musculus with 4 samples.

Results

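The genes described here are the macrophage proteases that cut extracellular matrix and cell-surface proteins, together with the inhibitors that hold them in check. They comprised 6 matrix metalloproteinases (MMPs), namely Mmp8, Mmp9, Mmp12, Mmp13, Mmp14 and Mmp19, the membrane protease Adam8, and the tissue inhibitors of metalloproteinases (TIMPs) Timp1, Timp2 and Timp3. These 10 genes were listed by name, not by a cutoff on measured values, out of 21878 genes in the count table. Earlier results of these data were known when they were listed. All 10 had enough reads to be among the 12494 genes tested.

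RNA of bone marrow-derived macrophages was sequenced from 2 wild-type cultures, labelled WT, and 2 cultures labelled anti-Act1. The marrow came from C57BL/6 mice, 8 weeks old according to the labels, and the cells were matured in M-CSF. All macrophages, those of the wild-type controls included, had been cocultured with MC38, a mouse colon carcinoma line, for 48 h according to the labels, while a figure legend of the study gives a shorter time. In the study's coculture system a porous insert separated tumour cells from macrophages. The anti-Act1 mice carried a macrophage-specific knockdown of Act1, the adaptor of IL-17 receptor signalling encoded by Traf3ip2. The construct and its promoter are not given in the sources used here. The study's methods give 2 biological replicates per condition, and whether each came from its own mouse is not stated.

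MMPs are zinc-dependent endopeptidases that most often leave the cell as inactive proenzymes and cut collagens, elastin, gelatin and many non-matrix proteins once the propeptide is removed. TIMPs bind the active site and block it, so the balance of protease and inhibitor sets how much activity a tissue has. Macrophages are a main source of these enzymes in tumours and wounds, and MMP12 takes its name of macrophage elastase from them.

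Each library held between 55435063 and 75062945 counts, and a count of 3 corresponded to 0.0395 to 0.0549 CPM (counts relative to a TMM-adjusted library size). Traf3ip2 itself was at 6.98 and 7.54 CPM in the WT libraries and at 9.63 and 7.84 CPM in the anti-Act1 libraries. Its log2 change, the log2 of the anti-Act1 to WT ratio, was 0.27 (SE 0.12, edgeR adjusted p = 0.117). The Traf3ip2 read counts were thus not lower where the labels give the knockdown. In a supplementary figure, the study reports reduced Act1 expression in marrow-derived macrophages of anti-Act1 mice. The Y-linked genes Ddx3y, Eif2s3y, Uty and Kdm5d summed to 228 and 246 CPM in the WT libraries and to 0.0162 and 0 CPM in the anti-Act1 libraries. Genotype and the presence of Y-linked transcripts therefore cannot be told apart in this design, and every direction below is that of the libraries labelled anti-Act1 against the libraries labelled WT. The 10 macrophage markers all passed the filter on low counts, with sums of 24995 to 26523 CPM.

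In libraries labelled anti-Act1, 3 of the 10 genes were higher (Mmp9, Mmp12 and Mmp14), 2 were lower (Mmp19 and Timp2), and 5 did not pass edgeR's quasi-likelihood test at an adjusted p under 0.05 (Mmp8, Mmp13, Adam8, Timp1 and Timp3). Over all genes tested, 20.7% passed in either direction, 10.9% as higher and 9.76% as lower. The median log2 change was 0.0041 over the 10 genes and -0.0046 over all genes tested. With so few members these counts describe the genes and are not a test of the group. The 5 genes that passed differed in size from 1.94-fold for Mmp9 to 1.20-fold for Mmp14 upwards, and reached 0.80-fold for Mmp19 and 0.83-fold for Timp2 downwards.

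**Figure D1:**
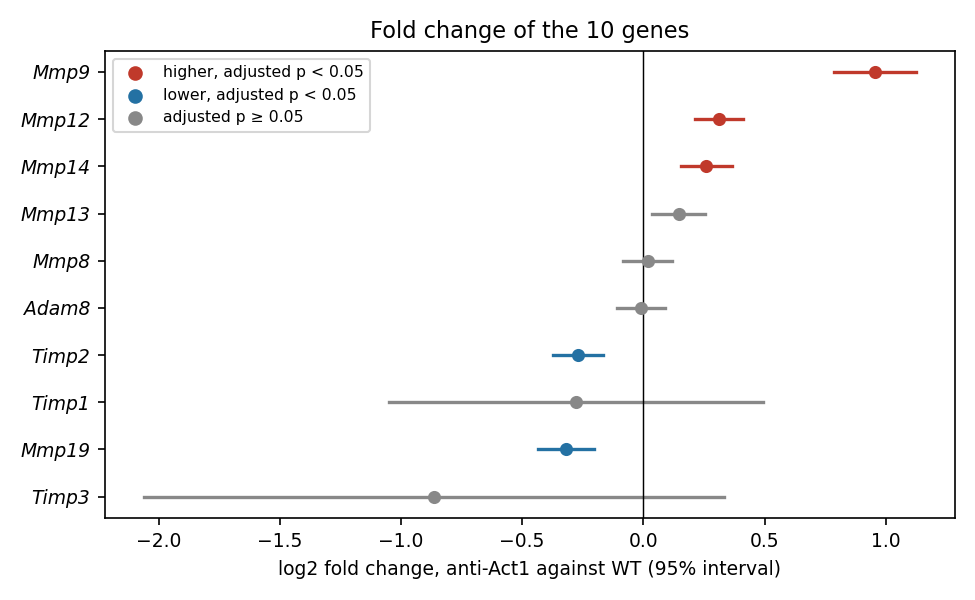
Log2 change of each gene (libraries labelled anti-Act1 against WT, horizontal axis) with its 95% confidence interval from edgeR, coloured by whether the adjusted p was under 0.05. Mmp9 stands furthest from 0 among the genes that passed, at 0.96, and the widest intervals belong to Timp1 and Timp3, the 2 genes with the fewest reads.

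Levels of different genes were compared on the scale of FPKM, the deposited values that also divide by gene length. Mmp12 was the most abundant, at 725 and 748 FPKM in WT and 923 and 875 FPKM in anti-Act1 libraries. Adam8 followed at 555 to 586 FPKM over the 4 libraries. After it came Mmp8 at 211 to 220 FPKM and Timp2 at 131 to 168 FPKM. The middle of the order was taken by Mmp14 (61.1 to 74.5 FPKM), Mmp13 (34.1 to 39.1 FPKM) and Mmp19 (17.7 to 23.7 FPKM). Mmp9 was at 3.99 to 8.78 FPKM, with Timp1 (0.628 to 0.976 FPKM) and Timp3 (0.0154 to 0.0740 FPKM) last. The order was the same in all 4 libraries, and the ranges of neighbouring genes did not overlap. Timp2 was thus the TIMP these cultures expressed, with 99.4% to 99.5% of the summed FPKM of the 3 TIMPs.

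**Figure D2:**
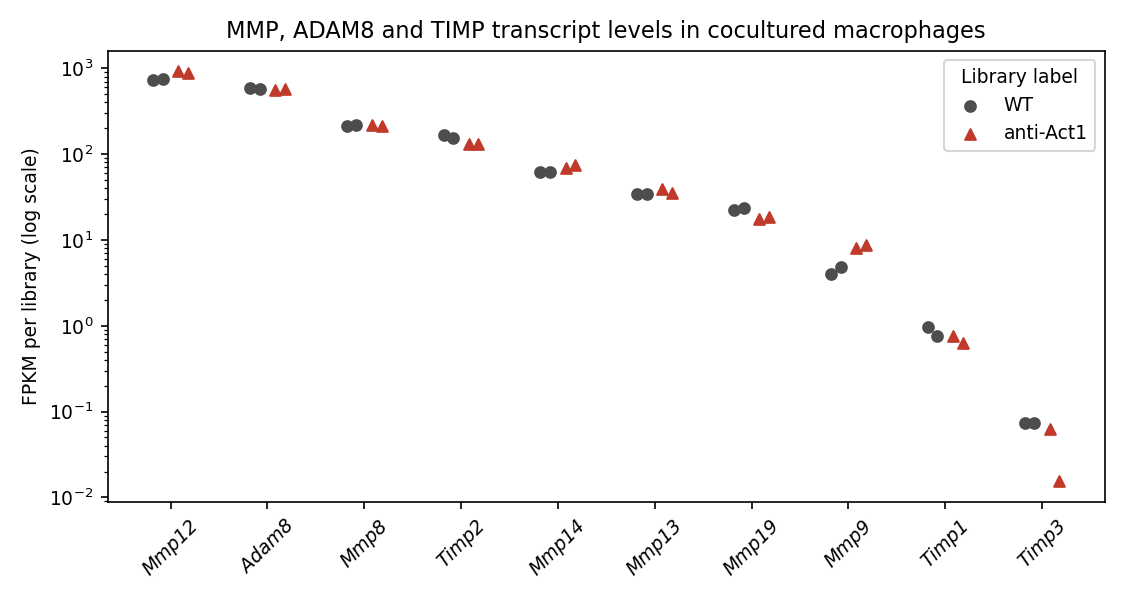
Level of each gene in FPKM (logarithmic axis) in the 2 WT and the 2 anti-Act1 libraries, 1 point per library. Mmp12 and Adam8 sit at 555 FPKM or more in every library, whereas Timp1 and Timp3 sit below 1 FPKM.

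Mmp9 encodes gelatinase B, which cuts denatured collagen and basement membrane collagen. It was at 12.7 and 15.2 CPM in the WT libraries and at 25.7 and 28.5 CPM in the anti-Act1 libraries. Both anti-Act1 libraries were well above both WT libraries. Here and below, such separation describes the values and is no further support for a call. Genes that did not pass, such as Mmp13 and Mmp10, also showed it. The means were 13.9 ± 1.78 CPM (SD, n = 2) and 27.1 ± 1.97 CPM (SD, n = 2), a log2 change of 0.96 (SE 0.08, 95% interval 0.79 to 1.13) with an edgeR adjusted p of 9.95e-13. The RNA came from whole cultures. A change in the cells that express a gene and a change in its RNA per cell therefore cannot be told apart. This holds here and for every gene below.

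Mmp12 encodes macrophage elastase. Its level was 2252 and 2312 CPM in the WT libraries and 2893 and 2776 CPM in the anti-Act1 libraries, again without overlap. It rose by a log2 change of 0.31 (SE 0.05, edgeR adjusted p = 2.11e-06), from 2282 ± 42.8 to 2834 ± 83.0 CPM (SD, n = 2 each). Though smaller as a ratio than that of Mmp9, the difference was the larger one per length: the mean level moved from 737 to 899 FPKM for Mmp12 and from 4.40 to 8.40 FPKM for Mmp9. The call was lost with limma on log2(FPKM + 1) when no filter on low values was used (adjusted p = 0.0633). On the opposite strand, Mmp12 shares 157 of its 7237 exon bases with Mmp1b, which had at most 3 counts in any library.

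Mmp14 encodes a membrane-anchored MMP that cuts collagen at the cell surface and, in complex with TIMP2, activates proMMP2. Its values were 232 and 229.9 CPM in WT and 266 and 288 CPM in anti-Act1 libraries. The WT libraries were nearly equal, and the anti-Act1 libraries were both higher but less alike. The log2 change was 0.26 (SE 0.05, edgeR adjusted p = 0.000127), with means of 231 ± 1.62 and 277 ± 15.5 CPM (SD, n = 2 each).

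Mmp19 encodes a secreted MMP that lacks a place in the classical collagenase, gelatinase and stromelysin groups. It stood at 74.1 and 78.3 CPM in the WT libraries and at 59.5 and 62.7 CPM in the anti-Act1 libraries. Here the groups were separated in the other direction from Mmp9, Mmp12 and Mmp14, with a log2 change of -0.32 (SE 0.06, edgeR adjusted p = 3.005e-05). Mmp19 shares 789 of its 3533 exon bases with Tmem198b on the opposite strand. Whether the counting used strand is not stated, so reads from these shared bases cannot be told apart. Tmem198b had 852 and 1151 counts in WT and 870 and 783 counts in anti-Act1 libraries, with a log2 change of 0.00 (edgeR adjusted p = 0.993), against 3421 to 5942 counts for Mmp19.

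Timp2 encodes an inhibitor of most MMPs that also takes part in the activation of proMMP2 on the cell surface. Its level was 605 and 552 CPM in the WT libraries and 480.0 and 480.9 CPM in the anti-Act1 libraries. Timp2 was lower in both anti-Act1 libraries, and the spread lay in the WT group (579 ± 37.5 against 480.5 ± 0.626 CPM, SD, n = 2 each). The log2 change was -0.27 (SE 0.05, edgeR adjusted p = 7.38e-05). Leaving out WT replicate 1 gave -0.20 and leaving out WT replicate 2 gave -0.33, and the call held in both fits.

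**Figure D3:**
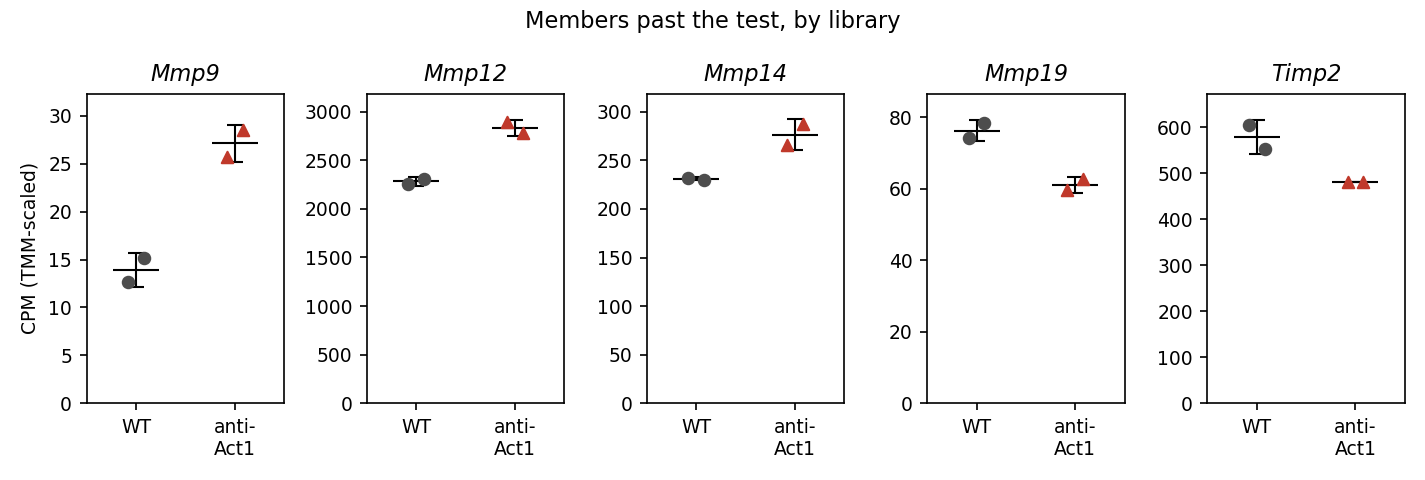
Level in CPM of the 5 genes that passed the test, in a panel each, for the 2 WT and the 2 anti-Act1 libraries. Points are libraries and horizontal lines are group means with bars of 1 SD (n = 2). Mmp9, Mmp12 and Mmp14 lie higher and Mmp19 and Timp2 lower in both anti-Act1 libraries than in either WT library.

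The collagenases Mmp8 and Mmp13, which cut fibrillar collagen, did not pass the test. Mmp8 was at 519 and 533 CPM in WT and 541 and 525 CPM in anti-Act1 libraries, with overlapping groups and a log2 change of 0.02 (95% interval -0.08 to 0.12, edgeR adjusted p = 0.844). Mmp13 was at 90.6 and 91.7 CPM in WT and 105 and 96.7 CPM in anti-Act1 libraries. Its groups did not overlap, but the difference of 0.15 on the log2 scale (95% interval 0.03 to 0.26) gave an edgeR adjusted p of 0.0544. It passed at 0.0445 when only genes with at least 10 counts in every library were kept. Leaving out anti-Act1 replicate 1 gave a log2 change of 0.09, and leaving out anti-Act1 replicate 2 gave 0.20.

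Adam8 encodes a membrane-bound protease of myeloid cells that sheds adhesion molecules. Its values of 2047 and 2005 CPM in WT and 1958 and 2064 CPM in anti-Act1 libraries overlapped (log2 change -0.01, 95% interval -0.11 to 0.09, edgeR adjusted p = 0.915). This was one of the most deeply read of the 10 genes, with 112700 to 152134 counts per library.

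Timp1, an X-linked gene for a secreted inhibitor of MMP9, had 54 and 49 counts in WT and 41 and 30 counts in anti-Act1 libraries. At this depth the log2 change was -0.28 with a 95% interval of -1.05 to 0.50 (edgeR adjusted p = 0.683), and the CPM of the groups overlapped. Timp1 overlaps Syn1 on the opposite strand, with 0 shared exon bases. Syn1 had 2899 and 3474 counts in WT and 2313 and 2230 counts in anti-Act1 libraries. Timp3, the matrix-bound inhibitor that also blocks ADAM17, had 22 and 26 counts in WT and 18 and 4 counts in anti-Act1 libraries. The difference of -0.86 (95% interval -2.06 to 0.33, edgeR adjusted p = 0.344) rested on anti-Act1 replicate 2, being -0.23 without that library and -2.19 without anti-Act1 replicate 1. Timp3 shares 1733 of its 8144 exon bases with Syn3 on the opposite strand. Syn3 had 176 and 198 counts in WT and 108 and 132 counts in anti-Act1 libraries, fewer in the same direction as Timp3. Reads from the shared bases cannot be told apart, and their part in the Timp3 difference was not tested. A difference smaller than the intervals of Timp1 and Timp3 was not detectable for these genes.

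Placed side by side per length, the 6 MMPs summed to 1060 and 1092 FPKM in the WT libraries and 1278 and 1223 FPKM in the anti-Act1 libraries, while the 3 TIMPs summed to 169 and 155 FPKM in WT and 133 and 131 FPKM in anti-Act1. The ratio of these 6 MMPs to these 3 TIMPs was 6.26 and 7.04 in WT and 9.61 and 9.31 in anti-Act1 libraries. The sum leaves out Mmp27, at 77.8 and 79.7 FPKM in WT and 79.5 and 71.1 FPKM in anti-Act1 libraries. Mmp12 made up 68.4% to 72.2% of the sum of the 6 MMPs, so the ratio is in large part that of Mmp12 to Timp2. Mmp14 to Timp2, the pair that meets on the cell surface, stood at 0.365 and 0.397 in WT and at 0.528 and 0.570 in anti-Act1 libraries. These ratios follow from the values above and were not tested, and they are ratios of transcripts, not of protein or activity. With 2 libraries a group, an exact permutation test on a single ratio could not have gone below p = 0.333.

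Mmp13, Mmp12 and Mmp8 belong to the MMP cluster of chromosome 9, where 10 MMP genes lie in the order Mmp13, Mmp12, Mmp1b, Mmp3, Mmp1a, Mmp10, Mmp8, Mmp27, Mmp20 and Mmp7 (GENCODE M21). Of these, 5 were tested. Mmp12 was called higher, and Mmp13, Mmp10, Mmp8 and Mmp27 were not called. Over all genes tested, 20.7% were called in either direction, and the cluster was not tested as a group. Mmp10, a stromelysin, was at 2.32 and 2.49 CPM in WT and 3.59 and 2.97 CPM in anti-Act1 libraries (log2 change 0.45, edgeR adjusted p = 0.0849). Mmp27, at 135 to 149 CPM, had a log2 change of -0.04 (95% interval -0.15 to 0.07, edgeR adjusted p = 0.683). Mmp1a, Mmp20 and Mmp7 had no counts in any library, and Mmp1b and Mmp3 had at most 6. The interval of Mmp12 (0.21 to 0.41) lay above those of Mmp8 and Mmp27 and overlapped those of Mmp13 (0.03 to 0.26) and Mmp10 (0.07 to 0.83). The difference between genes of the cluster was not itself tested.

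**Figure D4:**
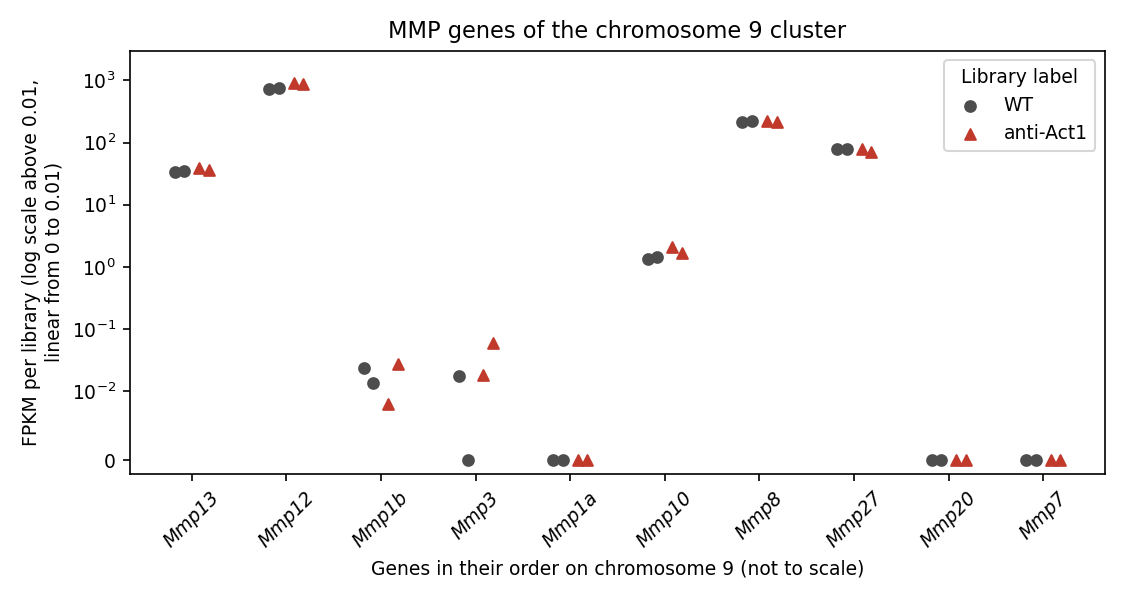
Level in FPKM of the 10 MMP genes of the chromosome 9 cluster in genomic order, in the WT and anti-Act1 libraries, 1 point per library. The axis is logarithmic except near 0. Mmp12 sits highest, at 725 FPKM or more in every library, and Mmp1a, Mmp20 and Mmp7 sit at 0.

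The sequences before the starts of the chromosome 9 members are shown because these genes belong to the same cluster, where Mmp12 passed the test and Mmp13 and Mmp8 did not. They come from RefSeq (GRCm38.p6), which had windows for 8 of the 10 genes, with 2 starts for Mmp12. Mmp9 and Mmp19 had no entry. Capitals mark TGANTCA, the core of AP-1 sites, which reads the same on both strands. The 250 bases before each start are given 5′ to 3′, cut at 234 bases for the first start of Mmp12.
Mmp13, chr9:7272264-7272513, plus strand: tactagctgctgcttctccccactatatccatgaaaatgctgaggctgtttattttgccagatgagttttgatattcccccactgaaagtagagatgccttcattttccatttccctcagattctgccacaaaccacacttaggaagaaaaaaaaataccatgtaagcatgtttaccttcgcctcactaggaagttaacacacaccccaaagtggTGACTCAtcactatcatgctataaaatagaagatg
Mmp12 first start, chr9:7344147-7344380, plus strand: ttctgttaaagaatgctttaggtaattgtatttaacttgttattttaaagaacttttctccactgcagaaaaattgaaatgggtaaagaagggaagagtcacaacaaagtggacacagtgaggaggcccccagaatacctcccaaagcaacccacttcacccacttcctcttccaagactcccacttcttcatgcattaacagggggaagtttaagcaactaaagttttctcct
Mmp12 second start, chr9:7347124-7347373, plus strand: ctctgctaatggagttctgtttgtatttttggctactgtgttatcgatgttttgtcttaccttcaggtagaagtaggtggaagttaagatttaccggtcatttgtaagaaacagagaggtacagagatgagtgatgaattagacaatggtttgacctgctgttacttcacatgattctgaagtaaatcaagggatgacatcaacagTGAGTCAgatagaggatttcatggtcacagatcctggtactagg
Mmp8, chr9:7558179-7558428, plus strand: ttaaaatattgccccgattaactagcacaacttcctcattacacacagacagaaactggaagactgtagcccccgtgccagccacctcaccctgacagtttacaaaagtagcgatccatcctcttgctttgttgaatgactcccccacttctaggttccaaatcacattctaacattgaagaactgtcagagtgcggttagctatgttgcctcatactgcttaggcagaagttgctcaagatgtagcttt
The windows searched held the 250 bases before each start and the 50 bases from it, more than is printed above. TGANTCA was found in the windows of Mmp13, at -35 to -29 from the start, and of the second start of Mmp12, at -44 to -38. It was absent from the Mmp8 window. The same letters occur in 7.81% of the 32851 windows of the same length. GGGCGG, the GC box, searched on both strands, was in the windows of Mmp14, Timp1, Timp2, Timp3 and Adam8 and in 35.7% of all windows. TTCNNNGAA, the core of STAT sites, was in none of the 9 windows and in 8.30% of all. An NF-kappaB consensus was in the window of the first start of Mmp12 and in 8.46% of all. A match of letters is a description of the sequence and not a site shown to be bound, and these matches do not separate the genes that passed from those that did not.

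Beyond the 10 genes, a list of the other MMPs and Timp4 held 18 genes. Of these, 8 were tested, 2 had an unadjusted p under 0.05 (Mmp10 and Mmp11) and 0 passed in edgeR, in DESeq2 or in limma. In edgeR, 20.7% of all genes tested passed. Mmp11 was at 1.56 and 1.15 CPM in WT and 1.96 and 2.12 CPM in anti-Act1 libraries (edgeR adjusted p = 0.0798), and it passed without WT replicate 1 (adjusted p = 0.0482). Mmp2, whose proenzyme MMP14 activates with TIMP2, was at 2.37 and 2.08 CPM in WT and 2.09 and 2.77 CPM in anti-Act1 libraries (edgeR adjusted p = 0.746), with overlap. A further 6 genes of this list had no counts in any library.

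Among 26 other ADAM and ADAMTS genes, 15 were tested, 6 were higher and 2 were lower, at a median log2 change of 0.10. The shares over all genes tested were 10.9% higher and 9.76% lower, and the list was not tested as a group. Adamts1, a proteoglycan-cutting enzyme, was at 0.898 and 0.856 CPM in WT and 2.95 and 3.19 CPM in anti-Act1 libraries (log2 change 1.80, SE 0.24, edgeR adjusted p = 4.38e-08). Adamtsl5, a family member without a protease domain, went from 37.6 and 36.6 to 57.8 and 58.5 CPM (log2 change 0.65, SE 0.06). Adam17, the protease that sheds TNF, went from 338 and 339 to 391 and 400.0 CPM (log2 change 0.22, edgeR adjusted p = 0.00065). Adam10, its closest relative, had a log2 change of -0.12 (edgeR adjusted p = 0.111). Adamts10 was lower, at 17.9 and 18.1 against 13.9 and 12.6 CPM.

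Fewer of those calls held when a library was left out. The 8 calls of that list became 4 without WT replicate 2 and 5 when either anti-Act1 library was left out. Adam9, which was lower (log2 change -0.15), had adjusted p values of 0.218, 0.298 and 0.0856 in these 3 fits. Adamts13 lost its call without WT replicate 2 (0.192) and anti-Act1 replicate 1 (0.364). Adamts7 lost it without WT replicate 2 (0.0682) and anti-Act1 replicate 2 (0.146), and Adamts15 lost it in all 3 fits (0.0525 to 0.181). Adamts7 and Adamts15 had at most 38 counts in any library. Without WT replicate 1, in turn, Adam10 (adjusted p = 0.0302) and Adamts6 (0.0195) passed as lower, and the list held 10 calls.

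Of 20 activators, cell-surface anchors and inhibitors, 15 were tested, 4 were higher and 2 were lower. Again 10.9% of all genes tested were higher and 9.76% were lower, and this list was not tested as a group. Sdc1 and Sdc4, heparan sulphate proteoglycans of the cell surface, and Bsg, known as the extracellular matrix metalloproteinase inducer, were higher. Sdc1 went from 516 and 504 to 799.9 and 807 CPM (log2 change 0.66, edgeR adjusted p = 8.85e-15), and Bsg went from 739 and 693 to 925 and 949 CPM (log2 change 0.39, edgeR adjusted p = 3.65e-08). Sdc4 went from 161 and 177 to 209 and 215 CPM, and its groups did not overlap either. Cd44, which anchors MMP9 at the cell surface, was lower (log2 change -0.24, edgeR adjusted p = 0.000372). Thbs1, which binds and limits MMP2 and MMP9, was also lower, from 6565 and 7144 to 5131 and 5357 CPM (log2 change -0.39, edgeR adjusted p = 3.12e-08). Furin, which activates MMP14, was at 0.01 with an edgeR adjusted p of 0.889, and Rhbdf2 was called higher but kept its call in only 6 of 13 alternatives. Its call was lost without WT replicate 2 (adjusted p = 0.0643) and without anti-Act1 replicate 2 (0.489), and also in DESeq2, without composition normalization and in each limma fit. Cd151, a tetraspanin, had an edgeR adjusted p of 0.256 and passed as higher without WT replicate 1 (0.023).

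**Figure D5:**
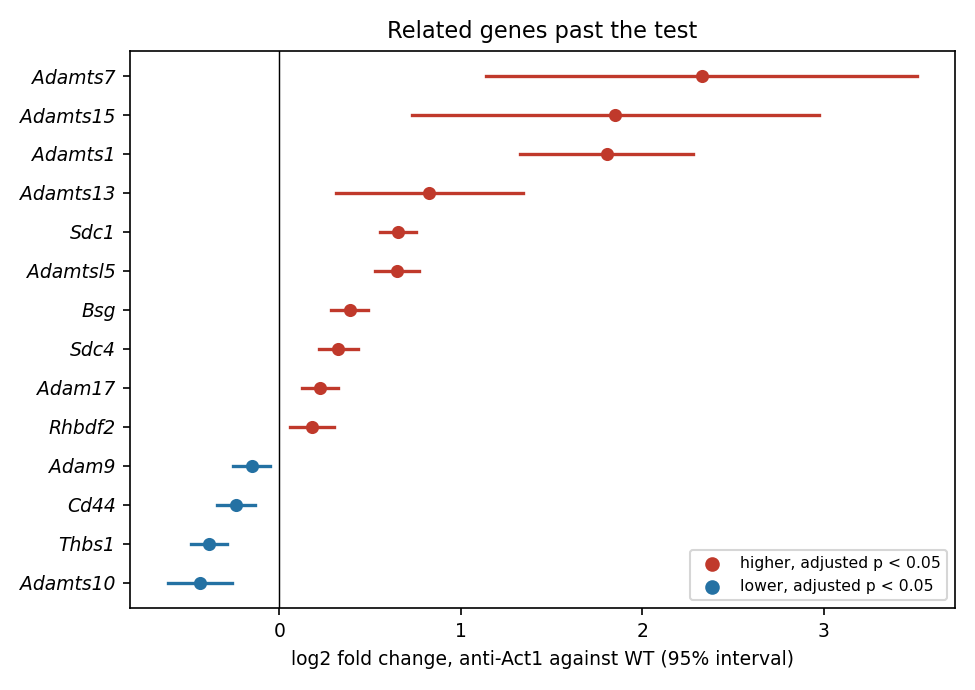
Log2 change with 95% confidence interval for the genes of the related lists that passed the test, coloured by direction. Adamts7, Adamts15 and Adamts1 have the largest values and wide intervals, and Sdc1 and Adamtsl5 have narrow intervals near 0.65.

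The genes whose profile over the 4 libraries was most like that of Mmp9, the member with the smallest adjusted p, were Trib3 (13.2 to 24.7 CPM in mean), Slc27a6 (4.33 to 8.65 CPM) and a gene listed under a name that a spreadsheet had turned into the date 10-Mar. Their distances were 0.0827, 0.1 and 0.106, the Euclidean distance of log2 CPM values centred on each gene's mean, over 10888 genes and 4 libraries.

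Markers of other cells that make these proteases were measured beside them. The 12 neutrophil markers summed to 9.01 to 9.88 CPM in each library, of 24995 CPM or more for the macrophage markers, and Ly6g had 5 counts in WT replicate 1 and 0 in the other libraries. Of the 9 neutrophil markers tested, 4 were lower (S100a9, Ngp, Ltf and Retnlg) and S100a8 was higher, from 3.67 to 5.82 CPM in mean. Among all genes tested, 9.76% were lower and 10.9% were higher. Fibroblast markers summed to 2.26 and 2.41 CPM in WT and 3.03 and 3.003 CPM in anti-Act1 libraries, with Lum at 0. Pdgfrb was the highest of them, at 1.22 and 1.15 CPM in WT and 2.02 and 1.41 CPM in anti-Act1 libraries (edgeR adjusted p = 0.156). Of the 4 fibroblast markers tested, 0 were called. The 10 epithelial markers summed to at most 0.898 CPM, with Krt8, Krt18 and Cdx2 at 0. Cdh1 (4 to 29 counts) and Vil1 (11 to 30 counts) had the most reads of these, and neither was called. The 8 dendritic cell markers summed to 4.58 to 5.59 CPM, with 0 of 6 called by edgeR. Per length, S100a8 stood at 9.26 and 9.65 FPKM in WT and 15.5 and 13.9 FPKM in anti-Act1 libraries, above Mmp9 in each. S100a9 stood below Mmp9 in each, at 3.51 and 3.01 FPKM in WT and 1.54 and 0.828 FPKM in anti-Act1 libraries. The part of these markers in the levels of the proteases was not tested.

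Osteoclasts, which arise from the same precursors in M-CSF, express Mmp9 and Mmp14 strongly. Their 8 markers summed to 1118 to 1167 CPM in every library. Of the 5 tested, Acp5 (144.5 to 195 CPM in mean, log2 change 0.43) and Ctsk (236 to 317 CPM, 0.42) were higher in the anti-Act1 libraries. Dcstamp (3.69 to 1.54 CPM, -1.26) and Atp6v0d2 (694 to 592 CPM, -0.23) were lower, and Nfatc1 did not pass (-0.12, edgeR adjusted p = 0.201). Over all genes tested, 10.9% were higher and 9.76% were lower. Calcr was at 0, and Ocstamp and Oscar had too few reads to be tested. Among the 10 macrophage markers, Cd14 was higher, Itgam, Mertk, Mrc1 and Cd163 were lower, and the other 5 did not pass, where 20.7% of all genes tested passed. Whether this shift in markers has a part in the change of Mmp9 or Mmp14 was not tested.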

How the data were processed

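RNA of 4 macrophage libraries was sequenced as paired reads from total RNA. The authors deposited whole counts per gene without normalization, and FPKM values, which equal those counts divided by a gene length and the column total. The study's methods name TopHat, and the submitters' processing notes list Bowtie 0.12.2, HTSeq 0.6.1 and the builds mm8 and mm10 without their roles. A wrong or mixed build or a counting that ignored strand could shift reads between overlapping genes.

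Groups were taken from the labels. Genes were filtered with filterByExpr (minimum count 10), scaled by TMM and tested with edgeR 4.0.16 (quasi-likelihood, all 4 libraries, no covariate) in R 4.3.3, with Benjamini-Hochberg adjustment over 12494 genes at 0.05. The code was tested on simulated data. Intervals cover 95% and, like the floor of 3 counts, only the spread between these libraries or counting error. DESeq2 1.42.0 and limma 3.58.1 on log2(FPKM + 1) and log2(FPKM + 0.1), other scalings and filters, the replicate block and leaving out each library were tried as 13 alternatives. The replicates of a group differed by more than sampling noise (chi-square per degree of freedom 10.8 in WT, 7.39 in anti-Act1).

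All 10 members are named with their values. Of the related lists, the rule named up to 8 genes with an adjusted p under 0.05 and a mean of at least 1 CPM in either group, by size of change, and genes whose call 1 library decides. Mmp2, Mmp10, Mmp27, Furin and the marker genes other than those at the ends of a list's range were named after their values were seen. For the nearest profiles, 3 genes were named. The members and lists were chosen with earlier results of these data known. RefSeq (GRCm38.p6) gave promoter windows and GENCODE M21 the gene order and overlaps. Some gene names had been turned into dates by a spreadsheet and were left as listed.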

Additional observations from a re-analysis of the deposited data

How the results depend on the processing

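Across the 13 alternatives the number of members called was 4 to 6 of 10, against 5 in the edgeR fit, and the number of all genes called was 2586. It was 1986 with DESeq2 and 1092 with unfiltered limma on log2(FPKM + 1). Leaving out a library gave 1671 (anti-Act1 replicate 2) to 2543 (WT replicate 1), with 1712 for anti-Act1 replicate 1. Mmp9, Mmp14, Mmp19 and Timp2 kept their direction and their call under all 13. Mmp8, which was not called, turned to -0.00645 without composition normalization, to -0.00659 with limma on log2(FPKM + 1) with or without the filter and to -0.00662 with limma on log2(FPKM + 0.1), and ranged from -0.0012 to 0.0419 when a library was left out. Adam8, also not called, ranged from -0.0481 to 0.0298 in those fits. The cause was not tested, and all these values lie near 0.

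With the replicate block, 5 members and 2406 genes were called. Deviations of same-numbered libraries correlated at -0.0297 over genes, so they showed no strong shared deviation. Whether same-numbered libraries were prepared together is not stated.

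Of the related lists, that of the other ADAM and ADAMTS genes moved most: the 8 called became 3 with unfiltered limma on log2(FPKM + 1). In that fit the 6 activators, anchors and inhibitors called became 4, and the other MMPs and Timp4 stayed at 0. Timp1 and Timp3 gave no value in limma with the filter of 1 FPKM, nor Timp3 with at least 10 counts in every library. Timp1 and Timp3, at 4 to 54 counts, are the members whose precision depth limits most.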
